A study of Homo sapiens with 4 samples.

Results

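Double-stranded RNA sensors and adaptors were described across 4 expression arrays of NOMO-1 cells, a line grown from a human monocytic acute myeloid leukaemia. The 10 members were listed by name: RIGI, IFIH1, DHX58, TLR3, EIF2AK2, ZBP1, MAVS, TICAM1, IRF3 and ADAR. They were taken because the hairpin RNA of a knock-down virus may itself be seen by such sensors. A member was matched where the platform annotation gave its symbol alone to a probe set. Each of the 10 was found on exactly 1 probe set, out of 18417 genes named on the array. Of the 10, 9 passed the filter on dim genes, which kept 12892 genes, and TLR3 did not.

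The cells had been infected with lentivirus at a multiplicity of infection of 1, and total RNA was taken 48 h after selection. The control group, labelled ZFX wild type, held the LEN-GFP array, from cells given a GFP virus, and the SCR array, from cells given a scrambled hairpin. The group labelled ZFX knock-down held 1 array for hairpin SH1 and 1 array for hairpin SH3, both against ZFX, a zinc finger transcription factor. All 4 arrays thus came from infected and selected cells of a single line, and uninfected cells were not analysed here. The label of LEN-GFP names no hairpin, so this array is the reference for the 3 arrays whose labels do. No construct was repeated, and nothing in the labels says that cultures were separate, so every p-value below measures the spread between constructs and arrays together.

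Long double-stranded RNA is a mark of virus replication, and cells carry several receptors for it. RIG-I (RIGI) and MDA5 (IFIH1) are helicases of the cytosol that signal through MAVS on mitochondria, while TLR3 reads RNA in endosomes and signals through TICAM1, also called TRIF. Both routes activate IRF3, which switches on interferon beta, and secreted interferon then raises the mRNA of most of the sensors themselves. PKR (EIF2AK2) is a kinase that stops translation when it binds double-stranded RNA, ZBP1 binds RNA in the left-handed Z form, and ADAR edits adenosine to inosine in paired RNA and so makes it less visible to the sensors.

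Interferon can act on such genes through a short promoter element, and its letters are shown here because they set some members apart by sequence and not by their values. RefSeq promoter windows of GRCh38.p14, from 250 bases before the start site to 50 bases after it, were found for 7 of the 10 members. They were searched on both strands for GAAANNGAAA, the core of the interferon-stimulated response element, which occurred in 3.57% of all 35116 windows of this length in the table. It was present for IFIH1, TLR3 and EIF2AK2. These letters are not in the windows of RIGI, MAVS, TICAM1 or ADAR, the last with 3 windows. Only this exact pattern was searched, so its absence from a window does not show that a gene lacks such an element. The matches follow 5′ to 3′ on the strand of the gene, with the matched letters in capitals. The first IFIH1 stretch holds 2 overlapping matches on the opposite strand and lies 159 to 144 bases before the start site, and the second lies 21 to 12 bases before it. The matches of EIF2AK2 and TLR3 lie across the start site.
IFIH1, chr2:162318808-162318863, minus strand: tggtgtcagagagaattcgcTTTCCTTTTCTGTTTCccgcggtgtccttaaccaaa
IFIH1, chr2:162318685-162318725, minus strand: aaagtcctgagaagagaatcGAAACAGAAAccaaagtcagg
EIF2AK2, chr2:37156967-37156996, minus strand: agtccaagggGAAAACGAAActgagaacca
TLR3, chr4:186069142-186069171, plus strand: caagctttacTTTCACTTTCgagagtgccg
The chemokine CXCL10 and the interferon-induced IFI6, 2 known products of the pathway that are described further on, hold the same core in their windows and are shown for comparison. The window of OAS1, another product that was searched and is described further on, does not have these letters. All 3 were chosen after their values were seen. A second core, TTCNNNGAA (GAS), was searched in the same windows and occurs in 7.66% of all windows. It had 1 match for OAS1 and 2 for TLR3, and none in the other windows searched for members and products. The CXCL10 match lies 221 to 212 bases before the start site, and the IFI6 match shown, the first of 3, lies 156 to 147 bases before it.
CXCL10, chr4:76023689-76023738, minus strand: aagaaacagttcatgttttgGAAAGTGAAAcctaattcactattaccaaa
IFI6, chr1:27672319-27672368, minus strand: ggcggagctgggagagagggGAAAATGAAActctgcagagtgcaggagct

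The median intensity of the 4 arrays was between 184.8 and 189.8. The targeted gene, ZFX, had a log2 intensity of 10.13 on SH1 and 10.12 on SH3, lower than the 10.65 of LEN-GFP and the 10.66 of SCR. Of the 8 monocytic markers that could be matched, 8 were above the filter on dim genes. So were 10 of 20 markers of 7 other cell types, which were 3 of 3 for fibroblasts, 2 of 2 for plasmacytoid dendritic cells, 2 of 3 each for B cells and natural killer cells, 1 of 3 for epithelium, 0 of 4 for T cells and 0 of 2 for erythroid cells. Passing the filter therefore does not by itself mark a cell type. Single arrays stood at unequal distances from LEN-GFP. A log2 difference of at least 0.5 in either direction, which is 1.41-fold, was reached by 1.26% of the tested genes on SCR, 3.9% on SH1 and 11.9% on SH3.

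Of all members the cytosolic helicases IFIH1 and RIGI varied most, and they did so in different orders. Each value is an average over a culture, in which fewer expressing cells and less RNA per cell cannot be told apart. IFIH1, the sensor of long duplexes, had a linear intensity of 171 on LEN-GFP, 127 on SCR, 177 on SH1 and 241 on SH3. It was lowest with the scrambled hairpin and highest with SH3, with a span of 1.90-fold, and the SH1 array lay next to the GFP virus. RIGI, the sensor of short duplexes with a triphosphate end, had an intensity of 456 on LEN-GFP, 386 on SCR, 571 on SH1 and 404 on SH3. Here SH1 was the high array, with a span of 1.48-fold, and SH3 lay between SCR and LEN-GFP. DHX58 (LGP2), a helicase that tunes the other pair and has no signalling domain of its own, had 184 on LEN-GFP, 172 on SCR, 154 on SH1 and 172 on SH3. Its highest array was the GFP virus and its span was 1.20-fold. No array was therefore high for all 3 helicases.

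The sensors of other classes showed spans of up to 1.26-fold. EIF2AK2, the kinase PKR, had 1669 on LEN-GFP, 1601 on SCR, 1664 on SH1 and 1354 on SH3. Only SH3 stood apart, on the low side. ZBP1, which can start necroptosis, had 136 on LEN-GFP, 143 on SCR, 134 on SH1 and 169 on SH3, with SH3 as the high array. TLR3 had 50.7, 53.1, 51.5 and 56.8 in the same order, below the filter on dim genes, so it could not be told from an unexpressed gene. The promoter windows of IFIH1, EIF2AK2 and TLR3 hold the letters shown above. On SH3 relative to LEN-GFP these genes stood at log2 differences of 0.49, -0.30 and 0.16, the last being the dim TLR3. Whether the letters act in these cells was not tested.

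**Figure D1:**
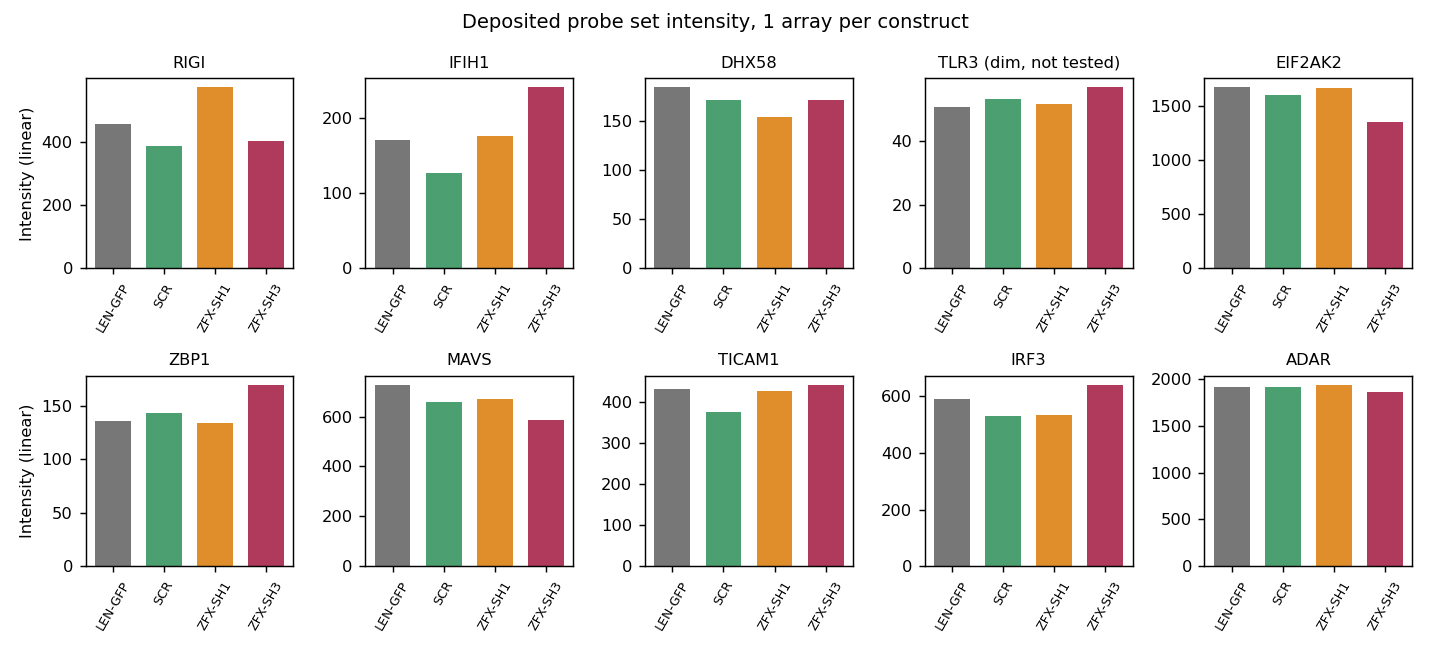
Linear probe set intensity of the 10 members on the 4 arrays, 1 bar per array and 1 panel per gene, each with its own axis from 0. IFIH1 runs from 127 on SCR to 241 on SH3 and RIGI is highest on SH1 at 571, while ADAR stays between 1861 and 1933.

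The adaptors and IRF3 varied little. MAVS, the adaptor of the RIG-I-like receptors, had 726 on LEN-GFP, 658 on SCR, 671 on SH1 and 585 on SH3. The GFP virus was its highest array and SH3 its lowest, with a span of 1.24-fold. TICAM1, the adaptor of TLR3, had 432 on LEN-GFP, 374 on SCR, 426 on SH1 and 440.2 on SH3, with only SCR below the others. IRF3 had 589.5 on LEN-GFP, 529 on SCR, 533 on SH1 and 639 on SH3, so the arrays of the 2 groups were interleaved. IRF3 is held ready as a protein and is switched on by phosphorylation, which an mRNA array does not read. ADAR, which has an interferon-driven start site of its own, had the steadiest values of the 10, with 1914 on LEN-GFP, 1919 on SCR, 1933 on SH1 and 1861 on SH3, a span of 1.04-fold.

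Set against LEN-GFP, no member reached the limit of 0.5 on any of the 3 arrays with a hairpin, where 1.26% to 11.9% of the tested genes did. On SCR 7 of the 10 members were lower than on LEN-GFP and 3 were higher, with a median of -0.12. Among all tested genes 58.6% were lower on SCR, 52.8% on SH1 and 51.7% on SH3. On SCR they had a median of -0.03. The scrambled hairpin was lowest relative to the GFP virus for IFIH1 (-0.43, with 1.88% of tested genes further down), RIGI (-0.24) and TICAM1 (-0.21). The member with the highest value on SCR was ZBP1, at 0.08. On SH1 6 members were lower and 4 higher, with a median of -0.01 as for all genes. RIGI, at 0.32, was its highest member, with 4.13% of tested genes further up, and DHX58, at -0.26, its lowest. On SH3 5 members were lower and 5 higher, with a median of -0.0060 against -0.0090 for all genes. IFIH1 stood at 0.49, just inside the limit, with 4.82% of tested genes further up, and ZBP1 at 0.32, while MAVS and EIF2AK2 stood at -0.31 and -0.30. These counts depend on how arrays are levelled. With each array centred on the median of its tested genes, 6, 3 and 4 of the 10 members were lower on SCR, SH1 and SH3. Of all tested genes, 34.8%, 39.0% and 42.6% were then lower on these arrays. IFIH1 then passed the limit on SH3 at 0.54.

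**Figure D2:**
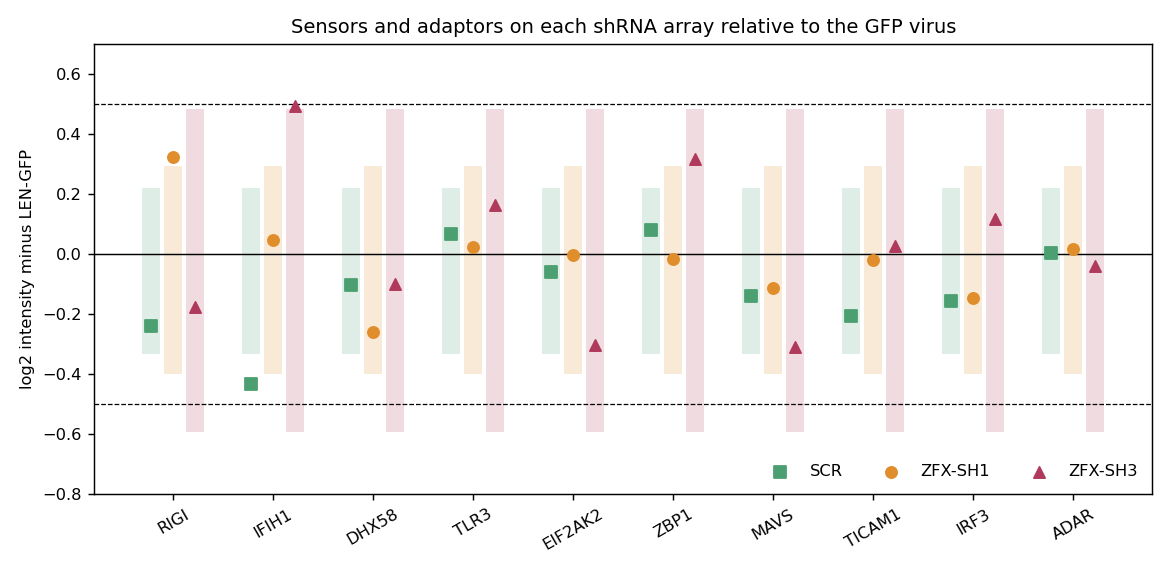
Log2 intensity of each member on SCR (squares), SH1 (circles) and SH3 (triangles) minus LEN-GFP, 1 array each. Shaded bars span the 5th to the 95th percentile of all 12892 tested genes on that array and dashed lines mark a difference of 0.5. All 30 points lie within the dashed lines. IFIH1 lies below the bar on SCR (-0.43) and just above it on SH3 (0.49), and RIGI lies just above it on SH1 (0.32).

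The 3 arrays with a hairpin were then compared with LEN-GFP in limma, a linear model fitted across all genes that borrows their spread. The lone LEN-GFP array was assumed to vary like the others. The residual spread was that among SCR, SH1 and SH3, which also differ in ZFX knock-down. Any knock-down effect thus counted as spread, so this fit could miss a difference of the hairpin arrays from LEN-GFP. Of the 9 tested members 0 passed an adjusted p of 0.05 (0% of the 12892 genes did), and 0 had an unadjusted p under 0.05 (1.71% of all genes). The differences ran from -0.19 for MAVS to 0.13 for ZBP1. MAVS was at 87.8% of LEN-GFP (SE of the log2 difference 0.16, 3 arrays against 1, limma adjusted p = 1.00), and DHX58 at 89.9% (SE 0.11). Both were lower on each of the 3 arrays, as was EIF2AK2, and 26.1% of all genes were lower on all 3. TLR3, which was dim, was higher on all 3 by 0.02 to 0.16, as were 18.5% of the tested genes. The 95% intervals were wide. For RIGI the difference was -0.03 with an interval from 0.60-fold to 1.59-fold, and for IFIH1 0.04 with one from 0.53-fold to 1.99-fold of LEN-GFP. For ADAR the interval was narrower, from 0.79-fold to 1.25-fold. Signs this close to 0 turned with the levelling of the arrays: 7 of the 9 differences were negative as deposited, and 3 of 9 after centring or a second quantile normalization. Over all genes the median of this difference was -0.02 as deposited and 0.05 after centring.

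The knock-down pair was next compared with both controls. IFIH1 was the only member whose groups did not overlap, since the log2 values were 6.98 for SCR, 7.42 for LEN-GFP, 7.46 for SH1 and 7.91 for SH3. This is 1 of 9 members, where 37.2% of all tested genes had groups that did not overlap. The IFIH1 difference was 0.49 (SE 0.21, 2 arrays against 2, 95% interval -0.07 to 1.04), which is 140.1% of the control level, with an unadjusted p of 0.0728 and an adjusted p of 0.797 in limma. The gap between the nearest arrays, SH1 and LEN-GFP, was 0.05. With SH1 left out the difference was 0.71 and limma called it (adjusted p = 0.0326), in a fit that called 13.2% of all genes. With SH3 left out it was 0.26 (adjusted p = 0.747, 0.419% of genes called), without LEN-GFP 0.70 and without SCR 0.27. Which control and which hairpin are used thus sets its size. RIGI differed by 0.19 (SE 0.21, adjusted p = 0.869), with 0.44 on SH1 and -0.06 on SH3 relative to the mean of the controls. The other 7 tested members lay between -0.14 for MAVS and 0.11 for ZBP1 and TICAM1, with adjusted p of 0.832 or more, and 0 members had an unadjusted p under 0.05 (6.04% of all genes).

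Against SCR alone, the control that also carries a hairpin, IFIH1 was higher by 0.48 on SH1 and by 0.93 on SH3 on the log2 scale. The pair differed from SCR by 0.70 (SE 0.23, 2 arrays against 1), with an unadjusted p of 0.0358 and an adjusted p of 1.00 in limma, and 1.87% of all genes had an unadjusted p under 0.05 in this fit, which has 1 residual degree of freedom. RIGI was higher by 0.56 on SH1 and by 0.06 on SH3, and the pair differed by 0.31 (SE 0.28). The remaining members lay between -0.09 and 0.21. Because SCR had the lowest IFIH1 and RIGI values of the 4 arrays, these differences are larger than those from LEN-GFP.

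**Figure D3:**
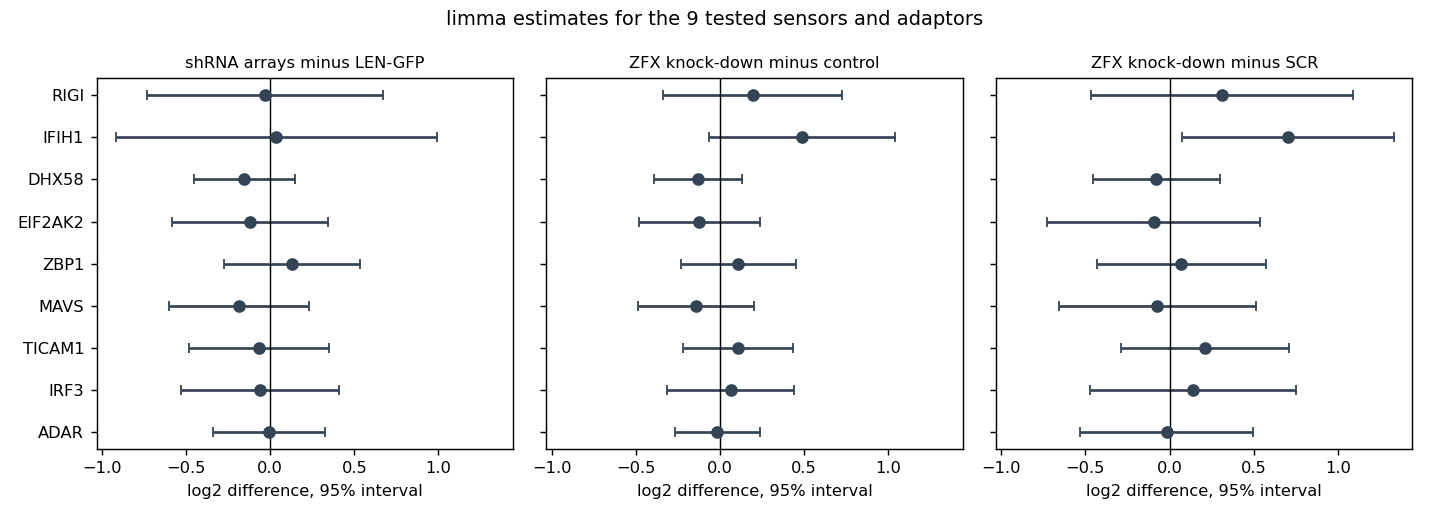
limma differences on the log2 scale with 95% intervals for the 9 tested members, for the 3 shRNA arrays minus LEN-GFP (left), the knock-down pair minus both controls (middle) and the pair minus SCR (right). Of the 27 intervals only that of IFIH1 against SCR, from 0.08 to 1.33, does not cross 0.

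The rest of the pathway was read through 10 lists with 172 genes, of which 161 could be matched to a probe set and 139 were tested. In limma 0 of these 139 passed in the comparison of hairpins with LEN-GFP (3 at an unadjusted p under 0.05, or 2.16%, against 1.71% of all genes). In that of knock-down with control 0 passed (17 unadjusted, or 12.2%, against 6.04%), and 0 passed against SCR (8 unadjusted, or 5.76%, against 1.87%). Genes past the limit of 0.5 relative to LEN-GFP numbered 2 on SCR (1.44%, against 1.26% of all genes), 6 on SH1 (4.32%, against 3.9%) and 25 on SH3 (17.99%, against 11.9%). As a background for the counts by list, 55.6% of all genes had a lower mean on the hairpin arrays than on LEN-GFP and 44.4% a higher one, and 49.2% had a higher mean in the knock-down pair than in the controls. The lists were chosen with earlier results of these data known, so these shares are a description and no test of the pathway. The genes named were those with the largest differences of each list, so their values are extremes.

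Among the products of an active sensor, the listed targets of IRF3 and interferon lay on both sides of the GFP virus. The OAS genes were placed in another list, described below. Of the 10 interferon genes on the array 3 were tested, the lambda genes IFNL1, IFNL2 and IFNL3, and the others, IFNB1 among them, were below the filter on dim genes. IFNL3 was at a log2 value of 8.85 on LEN-GFP, 8.90 on SCR, 8.87 on SH1 and 8.93 on SH3. IFNL2 and IFNL3 are near copies of each other, so their probe sets may share signal. Of 18 tested targets of IRF3 and interferon, 7 were higher and 11 lower on the hairpin arrays than on LEN-GFP, with a median of -0.10 (all genes -0.02). Against both controls 8 were higher and 10 lower on the knock-down pair, with a median of -0.06, which turned to 0.03 without LEN-GFP, to 0.01 without SH3 and to 0.02 with the dim genes kept. On SH3 5 of the 18 passed the limit of 0.5, 3 up and 2 down, where 11.9% of all genes passed it. Between knock-down and control 0 passed in limma, and 3 of the 18 had an unadjusted p under 0.05 (6.04% of all genes). A few genes of the list had larger values. IFI6 had log2 values of 9.32 on LEN-GFP, 9.56 on SCR, 10.16 on SH1 and 10.58 on SH3, with a difference of 0.93 between the groups (SE 0.19, unadjusted p = 0.00440, adjusted p over all genes 0.797 in limma). CXCL10 was at 11.97, 11.65, 12.08 and 12.83 in the same order, high on SH3. IFIT5, an RNA-binding product of interferon, was lower on each hairpin array by 0.21 to 0.33 than on LEN-GFP, at 7.86 there, 7.64 on SCR, 7.52 on SH1 and 7.53 on SH3.

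The other proteins that bind or cut double-stranded RNA included the listed gene with the widest difference between knock-down and control. OAS1, which makes the 2′-5′ oligoadenylate messenger when bound to such RNA, had a log2 value of 8.49 on LEN-GFP, 8.27 on SCR, 9.91 on SH1 and 9.50 on SH3. Both knock-down arrays lay at least 1.01 above both controls, and the scrambled hairpin lay below the GFP virus. Its relatives had the same order of groups, and 18.2% of all tested genes also had both knock-down arrays above both controls. OAS3 was at 7.72, 7.70, 8.08 and 8.27 (difference 0.46, SE 0.11), OAS2 at 8.42, 8.05, 8.83 and 8.67 (0.52, SE 0.16), and OASL at 6.92, 7.14, 7.26 and 7.43 (0.32, SE 0.12). None passed over all genes in limma (adjusted p = 0.797 for each). The unadjusted limma p of OAS1 was 0.00085, and 5 genes of this list of 20 were under 0.05 in either direction (6.04% of all genes). The OAS1 difference was 1.12 without SH1 and 1.53 without SH3. Over the whole list of 20 tested genes, 8 were higher and 12 lower in the knock-down pair, with a median of -0.07 (0.07 without SH3). On SCR, 8 of the 20 were higher than on LEN-GFP and 0 passed the limit.

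Around PKR, the stress kinases and their targets lay mostly below the GFP virus. Of 12 tested genes of the PKR and integrated stress response arm, 11 were lower on the hairpin arrays than on LEN-GFP, with a median of -0.19 (all genes -0.02), and 0 passed in limma. The size of this median depends on the processing. It was -0.12 with 8 of 12 genes lower after centring, -0.12 with the dim gene kept, and -0.11 with the mean of a gene's probe sets. The medians were -0.10 on SCR, -0.24 on SH1 and -0.18 on SH3, and that on SCR was 0.0015 after centring. The transcription factor DDIT3 (CHOP), a late product of this arm, was at a log2 value of 10.15 on LEN-GFP, 9.68 on SCR, 9.44 on SH1 and 9.62 on SH3. All 3 hairpin arrays lay below the GFP virus, by 0.47 to 0.71 (mean -0.57, SE 0.17, unadjusted p = 0.0214, limma adjusted p = 1.00). TRIB3, a pseudokinase induced by the same arm, lay below LEN-GFP by 0.42 on SCR, 0.88 on SH1 and 0.57 on SH3. The amino acid sensor kinase EIF2AK4 (GCN2) and DNAJC3, a chaperone that also binds and inhibits PKR, were lowest on SH3. EIF2AK4 was at 10.27, 10.31, 10.13 and 8.85 and DNAJC3 at 10.91, 11.01, 10.60 and 9.63.

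**Figure D4:**
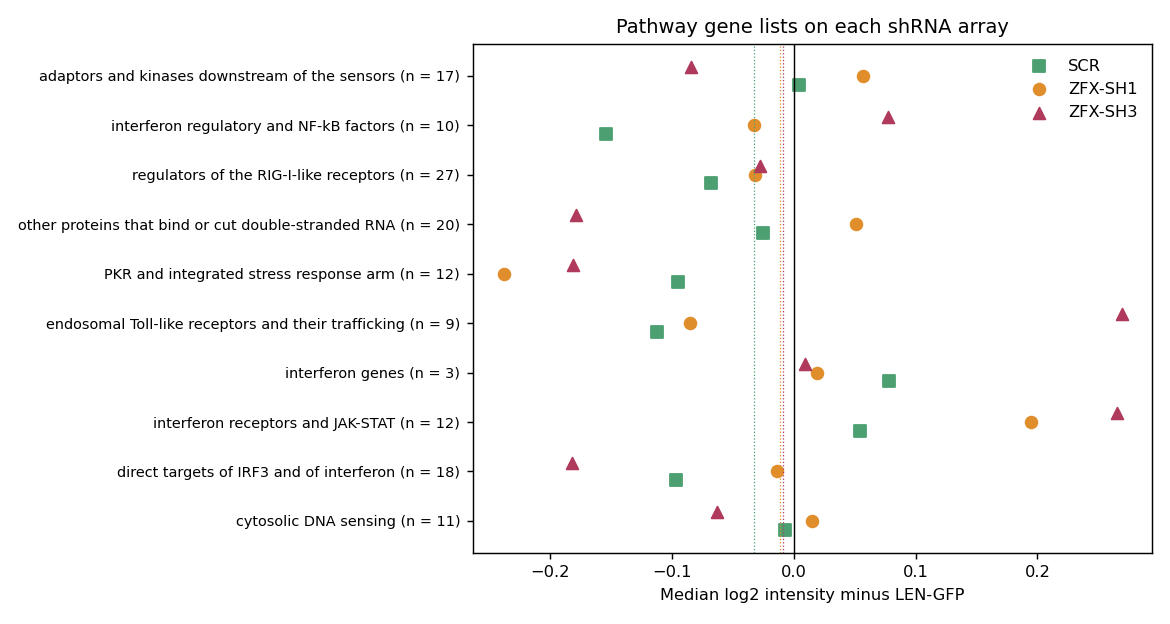
Median log2 difference from LEN-GFP of each pathway list on SCR (squares), SH1 (circles) and SH3 (triangles), with dotted lines at the median of all tested genes on that array. The PKR and stress list lies left of 0 on all 3 arrays (-0.10, -0.24 and -0.18, with 0.0015 for SCR after centring) and the interferon receptor list right of 0 on all 3 (0.05, 0.20 and 0.26).

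Between the adaptors and the nucleus, the direction of the list medians depended on the array or on how arrays were levelled. Of 17 tested adaptors and kinases 7 were higher on the hairpin arrays than on LEN-GFP, with a median of -0.0451 that became 0.0243 after centring. TRAF3 is the ubiquitin ligase that links MAVS and TICAM1 to the kinases. It was at a log2 value of 8.86 on LEN-GFP and on SCR, 8.50 on SH1 and 8.10 on SH3. Its groups differed by -0.57 (SE 0.17, unadjusted p = 0.0196, adjusted p = 0.797 in limma). TBK1, the kinase of IRF3, was low on SH1 alone, at 9.36 against 9.81 to 10.01 on the others. IKBKE, its relative, was higher on each hairpin array by 0.20 to 0.35. Of 10 tested interferon regulatory and NF-kB factors 0 were higher and 10 lower on SCR than on LEN-GFP, with a median of -0.15, where 58.6% of all genes were lower. After centring 6 of the 10 were lower (median -0.06), where 34.8% of all genes were. On SH1 3 were higher and 7 lower (median -0.03), and on SH3 6 were higher and 4 lower (median 0.08). Among them IRF7, the amplifier of the interferon response, was at 8.14, 8.11, 8.41 and 8.31 in the order LEN-GFP, SCR, SH1 and SH3. Of 27 regulators of the RIG-I-like receptors 8 were higher on the hairpin arrays, with a median of -0.07, and 14 were higher after centring (median 0.0029). TRIM25, a ubiquitin ligase that activates RIG-I, was at 11.10 on LEN-GFP and at 10.91, 10.59 and 10.84 on SCR, SH1 and SH3. TNFAIP3 (A20), which dampens the signal, was at 8.86, 8.30, 9.19 and 9.60 (groups differed by 0.81, SE 0.25).

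The receptors for interferon and their signalling genes lay mostly above the GFP virus. The median of the listed endosomal genes was above the GFP virus on SH3 alone. Of 12 tested genes of interferon receptors and JAK-STAT, 11 were higher on the hairpin arrays than on LEN-GFP, with a median of 0.13 that became 0.20 after centring and 0.21 without SCR. The medians were 0.05 on SCR, 0.20 on SH1 and 0.26 on SH3, and 0 of the 12 passed the limit of 0.5. In the knock-down pair 8 of the 12 lay above both controls, where 18.2% of all genes did, and 0 passed in limma (3 at an unadjusted p under 0.05). IRF9, the DNA-binding part of the factor that interferon activates, was at a log2 value of 9.40 on LEN-GFP, 9.20 on SCR, 9.61 on SH1 and 9.72 on SH3. IFNLR1, the receptor chain for lambda interferon, was at 7.83, 7.96, 8.16 and 8.28. Of 9 tested endosomal genes 2 were higher and 7 lower on SCR than on LEN-GFP (median -0.11), 4 were higher and 5 lower on SH1 (median -0.085), and 7 were higher and 2 lower on SH3 (median 0.27). The mean of the hairpin arrays was higher for 5 of the 9 (median 0.07), and for 3 of the 9 without SH3 (median -0.07). The single-stranded RNA receptors TLR7 and TLR8 and the DNA receptor TLR9 were highest on SH3. On SH1 these receptors also lay above LEN-GFP, by 0.279, 0.265 and 0.109. TLR7 was at 8.31, 7.72, 8.59 and 9.05, with SCR as its lowest array as for IFIH1. In the parallel route for DNA (11 genes, median -0.0063, or 0.0631 after centring) AIM2, an inflammasome sensor, was at 9.26, 9.44, 9.62 and 10.56.

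**Figure D5:**
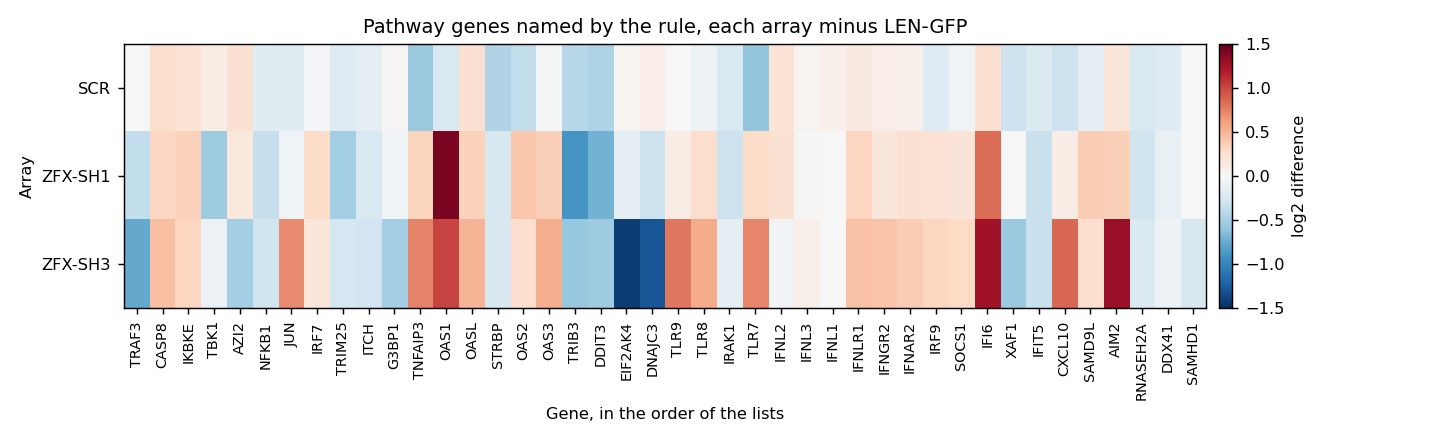
Log2 difference from LEN-GFP of the pathway genes named by the rule (columns, in list order) on SCR, SH1 and SH3 (rows, 1 array each), blue for lower and red for higher. OAS1 is red on SH1 and SH3 (1.42 and 1.01) but not on SCR (-0.23), TRIB3 and DDIT3 are blue on all 3, and EIF2AK4 and DNAJC3 are deep blue on SH3 only (-1.42 and -1.28).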

How the data were processed

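The authors deposited 1 linear intensity per probe set and array, made with Affymetrix Expression Console 1.1 and RMA per the submitters' processing notes. How the values came to a linear scale, the genome build and a detection call are not given in the sources used here. RMA usually makes arrays alike in distribution, so a change in total RNA is not visible, and it compresses fold changes of dim genes.

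Intensities were turned to log2. Of 33297 probe sets 19460 had 1 symbol in the platform annotation, and the brightest stood for its gene. Genes under a mean log2 of 6.70, the dimmest 30%, were not tested. limma 3.58.1 in R 4.3.3 (lmFit, eBayes with an intensity trend) gave two-sided p-values with Benjamini-Hochberg adjustment over all 12892 genes, threshold 0.05. The fit was tested on simulated data. Members, lists and tests were chosen with earlier results of these data known. Members were always named, and each list gave up to 3 genes with the largest difference per comparison. Only 4 arrays limit the precision.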

Additional observations from a re-analysis of the deposited data

How the results depend on the processing

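No paired analysis was possible because each array holds a different construct and the labels pair no array with another. Of 243 refits of single members 223 kept direction and call. The arrays were also centred on the medians of their tested genes, or quantile normalized a second time. The difference of the hairpin arrays from LEN-GFP then turned positive for RIGI (0.038 and 0.044), TICAM1 (0.0038 and 0.0046), IRF3 (0.0072 and 0.015) and ADAR (0.062 and 0.014). IFIH1 then passed the limit of 0.5 on SH3, 1 member in place of 0 under both. With 1 array left out, the same difference ran from -0.21 to 0.074 for RIGI, -0.19 to 0.27 for IFIH1, -0.11 to 0.0043 for TICAM1 and -0.018 to 0.0096 for ADAR. That between knock-down and control ran from -0.056 to 0.44 for RIGI, -0.27 to 0.025 for EIF2AK2, -0.057 to 0.28 for ZBP1, -0.068 to 0.19 for IRF3 and -0.042 to 0.013 for ADAR. For IFIH1 it ran from 0.26 to 0.71. In this comparison limma called 0 to 1698 genes with 1 array left out, 0 to 1 members and 0 to 30 pathway genes. Calls came without SH1 (1698, 1 and 30) and without SH3 (54, 0 and 1), where the lone array is assumed to vary like the close control pair. The comparison with SCR alone has 3 arrays, and leaving out another leaves no residual degrees of freedom. No other alternative gave a call. In 210 refits, the medians of the pathway lists moved by more than the spread between arrays of a group in 32 and took the opposite sign in 24. Those that bear on a list's description stand beside it.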
